A study of Mus musculus with 28 samples.

Results

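The Pramel and Pramef genes are mouse members of the PRAME family, and here they are the protein-coding genes of chromosomes 1 to 19 in GENCODE M21 (mm10) whose symbol starts with Pramel or Pramef. There were 11 such genes among 20807 protein-coding genes on these chromosomes. Pramel7 and Pramel6 lie next to each other on chromosome 2, and the other 9 lie in a cluster of 1014.0 kb on chromosome 4. In order along that chromosome these are Pramel1, Pramef8, Pramef6, Pramef25, Pramef17, Pramel4, Pramel5, Pramef20 and Pramef12. RefSeq gives the Pramef genes other symbols (Pramel12 for Pramef8, Pramel11 for Pramef6, Pramel16 for Pramef25, Pramel14 for Pramef17, Pramel15 for Pramef20 and Pramel13 for Pramef12). It also lists 38 relatives on these chromosomes that the symbol rule did not take, among them the oogenesin genes Oog1 to Oog4.

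The data are positions of H3K9me2 domains, called from ultra-low-input native ChIP (ULI-NChIP), an immunoprecipitation of MNase-digested, unfixed chromatin from few cells. All cells were mouse embryonic stem cells (mESCs) of a BL6/129 hybrid background in which endogenous Ehmt2 carries the dTAG degron with an mCherry reporter, so that the degrader dTAG-13 removes the EHMT2 protein and the solvent DMSO does not. The series has 28 libraries, 14 of immunoprecipitated and 14 of input chromatin. The EHMT2-dTAG-mcherry line was profiled unsorted with 2 immunoprecipitations and 2 inputs, 24 h into DMSO. The EHMT2-dTAG-mcherry MERV-GFP line, which also carries a GFP reporter driven by MERVL, was kept for 72 h in DMSO or dTAG-13 and sorted into 4 conditions, each with 3 immunoprecipitations and 3 inputs. GFP-negative cells are called mESCs and GFP-positive cells 2-cell-like cells (2CLCs), a rare state in mESC cultures that resembles the 2-cell embryo. The sorted experiments used a single clone, and the sources differ on TTNBP, which acts on retinoic acid receptors: the labels limit it to 2 replicates that they leave unspecified, and the methods give it for the sorted cells with no such limit. The mESCs were grown on feeder fibroblasts in serum and LIF.

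The deposited files hold 1 list of domains for each of the 4 sorted conditions and a further list whose name gives neither a cell state nor a treatment, called the unnamed set here. None of these lists has values for single libraries. No difference between sets could therefore be compared with a spread between replicates, no test was possible, and the depth behind each domain is unknown. The edges of the sorted sets lie on a common grid of 5 kb, and the signal behind them was averaged in windows of 10 kb, so a gene start less than 5 kb from an edge is placed only to the nearest bin. A domain list also holds no level of the mark: a gene inside a domain in 2 sets may carry different amounts of H3K9me2 in them.

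PRAME family proteins are built from leucine-rich repeats, and several act as the substrate-binding part of cullin ubiquitin ligases. The genes have multiplied in rodents in tandem arrays, and most are expressed in the germ line, in oocytes or in the early embryo, some of them when the embryonic genome is first transcribed. Pramel7 and Pramel6 are known in mESCs as factors of naive pluripotency, where PRAMEL7 targets the DNA methylation cofactor UHRF1 for degradation. H3K9me2, which EHMT2 deposits together with EHMT1, marks broad domains of repressed chromatin.

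RefSeq promoter windows of GRCm38.p6, running from 250 bases before to 50 bases after the start, were matched to 10 of the 11 genes, all except Pramef8. The Pramel7 window lies at its RefSeq start (87492418) and not at the GENCODE gene start used for placement (87497093). Whether transcription begins in each window was not tested. The windows of Pramel1, Pramef12 and Pramef20, at the ends of the chromosome 4 cluster, are shown beside that of Pramef6 from its interior, because the gene starts that change place between sorted sets are at the ends. Capitals mark CpG dinucleotides.
Pramel1, chr4:143394191-143394490, plus strand: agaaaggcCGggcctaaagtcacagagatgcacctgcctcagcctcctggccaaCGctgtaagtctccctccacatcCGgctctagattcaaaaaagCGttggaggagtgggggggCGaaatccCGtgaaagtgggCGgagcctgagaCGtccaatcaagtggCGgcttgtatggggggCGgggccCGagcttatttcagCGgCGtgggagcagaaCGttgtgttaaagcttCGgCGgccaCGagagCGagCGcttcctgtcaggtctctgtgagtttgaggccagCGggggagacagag
Pramef12, chr4:144408415-144408714, minus strand: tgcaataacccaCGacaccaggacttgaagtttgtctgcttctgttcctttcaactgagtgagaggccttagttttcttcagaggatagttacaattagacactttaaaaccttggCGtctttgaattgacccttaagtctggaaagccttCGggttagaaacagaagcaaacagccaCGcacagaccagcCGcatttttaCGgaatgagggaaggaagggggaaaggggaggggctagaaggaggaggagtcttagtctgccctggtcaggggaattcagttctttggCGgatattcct
Pramef20, chr4:144377884-144378183, minus strand: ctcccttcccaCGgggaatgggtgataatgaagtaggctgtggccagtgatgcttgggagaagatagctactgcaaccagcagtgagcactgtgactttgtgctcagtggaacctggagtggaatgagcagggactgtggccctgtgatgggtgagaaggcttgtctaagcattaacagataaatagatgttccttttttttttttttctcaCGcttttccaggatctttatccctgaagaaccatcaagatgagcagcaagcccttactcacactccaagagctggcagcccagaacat
Pramef6, chr4:143900331-143900630, minus strand: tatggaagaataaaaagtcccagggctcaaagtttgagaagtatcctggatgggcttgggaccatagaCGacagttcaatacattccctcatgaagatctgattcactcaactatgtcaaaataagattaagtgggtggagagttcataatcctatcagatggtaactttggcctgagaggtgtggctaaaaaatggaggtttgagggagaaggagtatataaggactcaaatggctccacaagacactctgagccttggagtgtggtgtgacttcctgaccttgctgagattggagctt
Pramel1 held 20 CpG dinucleotides in its window and Pramef12 held 7, and the other 8 windows held 0 to 3. The median over the 10 windows was 2, against 7 over the 31396 RefSeq promoters on chromosomes 1 to 19. The median GC content was 46.8% against 53.0% over all promoters, and Pramel1 was the highest of the 10 at 60.0%. The letters TATAAA, searched on both strands, were in 0 of the 10 windows and in 13.6% of all promoters. Only these exact letters were counted, so similar runs such as TATATAAG in the Pramef6 window were not. The low CpG count is thus shared by 8 of the 10 windows. Pramel1, with the most CpG dinucleotides of the 10, is also the one gene of the 11 whose start lay in no domain of any sorted set. It is a single gene at the outer end of the cluster, and Pramef12, next in CpG count, started inside domains in both mESC sets. A link between CpG count and placement was not tested.

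The windows of Pramel4 and Pramel5 are shown because they are near copies of each other, with a shared run of 111 bases, read along the strand of each gene, given in capitals.
Pramel4, chr4:144058875-144059174, plus strand: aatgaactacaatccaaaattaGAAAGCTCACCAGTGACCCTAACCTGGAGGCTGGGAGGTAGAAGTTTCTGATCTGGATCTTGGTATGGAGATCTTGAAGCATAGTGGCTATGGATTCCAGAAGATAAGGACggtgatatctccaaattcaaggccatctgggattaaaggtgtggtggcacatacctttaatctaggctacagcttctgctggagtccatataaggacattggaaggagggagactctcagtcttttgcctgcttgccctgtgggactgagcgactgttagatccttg
Pramel5, chr4:144280417-144280716, minus strand: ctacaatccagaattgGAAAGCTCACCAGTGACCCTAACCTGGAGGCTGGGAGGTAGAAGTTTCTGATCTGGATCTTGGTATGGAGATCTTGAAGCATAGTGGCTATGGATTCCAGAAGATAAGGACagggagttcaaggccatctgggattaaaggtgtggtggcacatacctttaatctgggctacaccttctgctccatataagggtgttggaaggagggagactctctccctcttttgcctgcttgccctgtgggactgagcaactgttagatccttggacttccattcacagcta
The next longest run shared by any pair of windows was 23 bases, between Pramel7 and Pramef17, and no other pair of the 10 windows shared more than 10 bases. In the coding sequence, the pairs with the longest shared runs also stood out among all 55 pairs of genes, but not alone. Pramel4 and Pramel5 were 93.7% identical, and Pramel7, on chromosome 2, was 80.9% identical to Pramef17 on chromosome 4. Pramef6 was 87.6% identical to Pramel4 and 87.4% to Pramel5, more than Pramel7 was to Pramef17. The Pramef6 window shared at most 10 bases with either of theirs. The median over the 55 pairs was 63.1% and the lowest was 59.1%. Coding sequences ran from 1374 bases in Pramel1 to 1509 bases in Pramel4.

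Most of these genes started inside H3K9me2 domains in every set. In mESC DMSO, 10 of the 11 starts (90.9%) were inside a domain, where 21.4% of all protein-coding genes on chromosomes 1 to 19 were. In mESC dTAG the count was 9 (81.8%, against 22.8% of all genes), and in 2CLC DMSO it was 8 (72.7%, against 22.1%). In 2CLC dTAG it was 9 (81.8%, against 25.5%). The family therefore stood far above the background share in all 4 sorted sets, but 9 of the 11 genes are neighbours in 1 cluster and are not independent observations. Domain positions give no level, so they do not show how much H3K9me2 remained on these genes after EHMT2 depletion. The start lay inside in all 4 sorted sets for 7 genes (63.6%, against 14.4% of all genes), and 1 gene, Pramel1, was in none of them (9.09%, against 67.1%). The remaining 3 genes, Pramef8, Pramef20 and Pramef12, changed place between sorted sets (27.3%, against 18.5%).

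**Figure D1:**
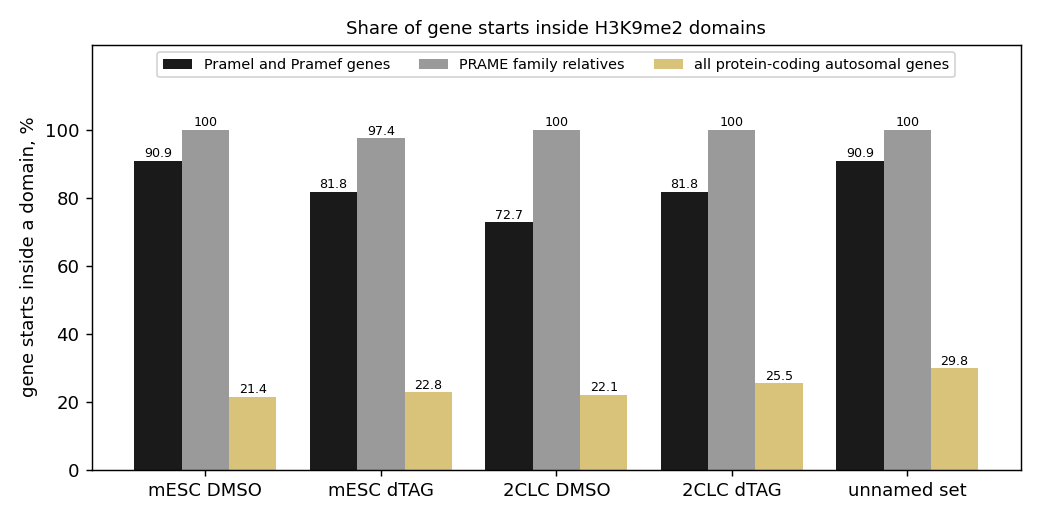
Share of gene starts inside a domain, in percent (bars, from 0), for the 11 Pramel and Pramef genes, their 38 RefSeq relatives and all 20807 protein-coding genes of chromosomes 1 to 19 in each of the 5 sets. The Pramel and Pramef genes lie between 72.7% and 90.9% and the relatives between 97.4% and 100%, against 21.4% to 29.8% of all genes; each set is a single list, so there is no error bar.

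Pramel7 and Pramel6, the genes known from naive pluripotency, were inside a domain in every set, and the domain around them differed in width. Pramel7 (chr2:87489087-87497093, minus strand) and Pramel6 (chr2:87506565-87510872, plus strand) lay in a domain of 875 kb in mESC DMSO. The domain was 4585 kb wide in mESC dTAG, and the 2CLC domains were 5315 kb (DMSO) and 4355 kb (dTAG) wide. The narrower mESC DMSO domain began 5 kb, a single bin, after the end of another domain of 2220 kb. Accordingly, the Pramel7 start lay 19.2 kb from the nearest edge in mESC DMSO and at least 1394 kb from it in the other 3 sorted sets. Both gene bodies were covered over their whole length in all 5 sets, and the neighbouring olfactory receptor genes Olfr1126 and Olfr153 also started inside domains in all 5.

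On chromosome 4, a single domain of 1015 kb (chr4:143409428-144424425) held 8 of the 9 genes in mESC DMSO. It covered 98.5% of the cluster. In mESC dTAG the cluster was covered by 2 domains of 835 and 100 kb, in 2CLC DMSO by 2 domains of 890 and 60 kb, and in 2CLC dTAG by 3 domains of 630, 245 and 65 kb. Coverage was 92.1%, 93.7% and 92.7% in these 3 sets. The cluster thus stayed mostly inside domains in every sorted set, and the sets differed at its ends and in how many domains divided it.

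**Figure D2:**
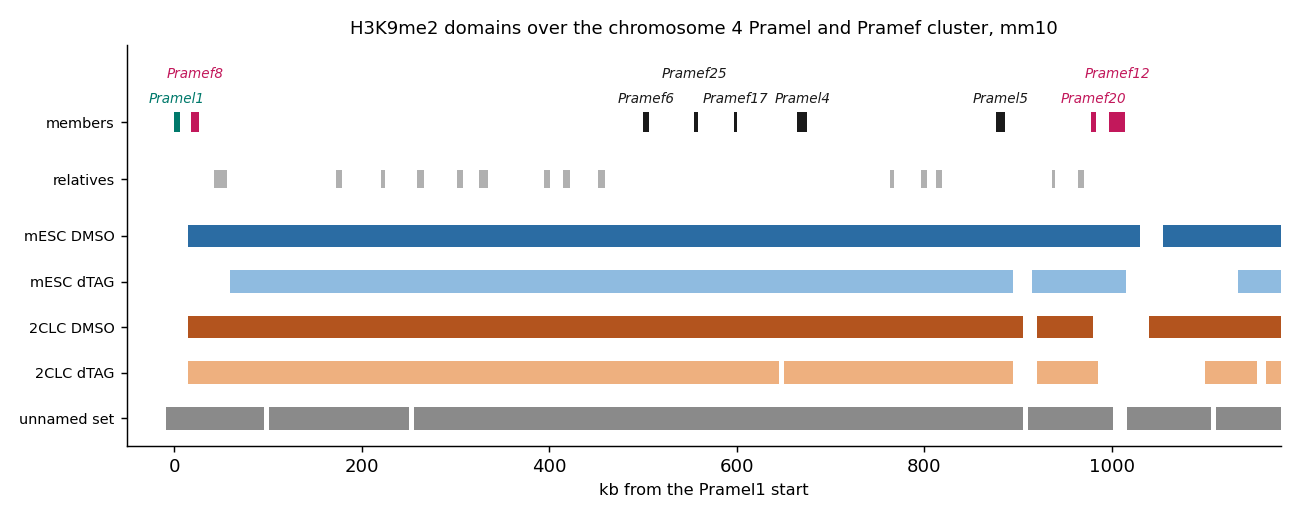
Domains (coloured bars, 1 row per set) over the chromosome 4 cluster, with the x axis in kb from the Pramel1 start, the 9 Pramel and Pramef genes in the top row and the 14 relatives of the cluster in grey below it. Genes in black start inside a domain in all 4 sorted sets, those in magenta in some and Pramel1, in green, in none; the magenta and green genes are at the 2 ends.

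The 5 genes of the interior were inside domains in all 5 sets, with whole bodies covered. Pramef6 (chr4:143894237-143900380, minus strand) started 491.0 kb (DMSO) and 389.0 kb (dTAG) from the nearest edge in mESCs and 399.0 and 139.0 kb from it in 2CLCs. Pramef25 (chr4:143948580-143951016, minus strand) started 473.4, 338.4, 348.4 and 88.4 kb from an edge in the same order. Pramef17 (chr4:143991119-143994369, minus strand) started 430.1, 295.1, 305.1 and 45.1 kb from one. For these 3 genes the edge was nearest in 2CLC dTAG, where a gap of 5 kb, 1 bin, opened between Pramef17 and Pramel4 (chr4:144039427-144044426).

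Pramel4 (chr4:144059126-144069327, plus strand) lay on the other side of that gap. Its start was 365.3 kb (DMSO) and 230.3 kb (dTAG) from an edge in mESCs and 240.3 and 14.7 kb from one in 2CLCs. Pramel5 (chr4:144270633-144280488, minus strand) was 143.9, 8.94, 18.9 and 8.94 kb from an edge in that order. The near edge of Pramel5 in the last 3 sets was that of a gap between Pramel5 and the relative Pramel30, which was absent from mESC DMSO. This gap was 20 kb wide in mESC dTAG, and in 2CLCs it was 15 kb (DMSO) and 25 kb (dTAG). It held no start of a gene or relative. Pramel4 and Pramel5, near copies in promoter and coding sequence, were thus both inside domains in all sets, in the same domain in each.

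**Figure D3:**
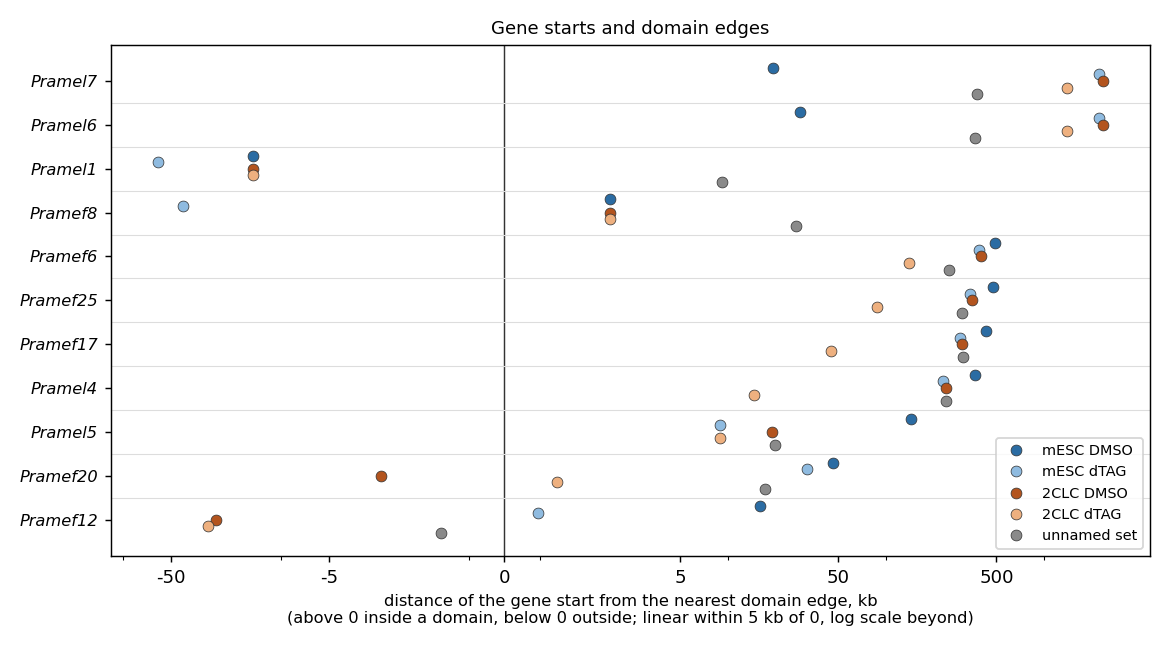
Distance of each gene start from the nearest domain edge in the 5 sets (points, coloured by set), in kb, positive inside a domain and negative outside, on an axis that is linear within 5 kb of 0 and logarithmic beyond. The 5 interior genes and Pramel7 and Pramel6 are right of 0 in all sets, while Pramef8, Pramef20 and Pramef12 have points on both sides and Pramel1 is right of 0 in the unnamed set only.

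At the left end of the cluster, Pramel1 and Pramef8 lay on opposite sides of a domain edge. Pramel1 (chr4:143394428-143400160, plus strand), a gene of the testis, started 15.0 kb outside the nearest domain in mESC DMSO, 2CLC DMSO and 2CLC dTAG and 60.0 kb outside it in mESC dTAG. No base of its body was in a domain of a sorted set. Pramef8 (chr4:143412426-143421091, plus strand) started 3.00 kb inside the edge in mESC DMSO, 2CLC DMSO and 2CLC dTAG, with its whole body covered, and 42.0 kb outside in mESC dTAG, with none of it covered. The edge stood at the same bin in the 3 sets that held Pramef8, and in mESC dTAG it stood 45.0 kb further into the cluster. The oocyte gene Oog4, a relative next to Pramef8, was 40.9 kb inside in the same 3 sets and 4.10 kb outside in mESC dTAG. As called, Pramef8 and Oog4 were therefore outside a domain only in mESCs treated with dTAG-13, and not in 2CLCs from the same treatment. The inside placement of Pramef8 and the outside placement of Oog4 were each less than 5 kb from an edge. Both are thus placed only to the nearest bin, and with domains trimmed by 5 kb Pramef8 was in no sorted set.

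At the right end, Pramef20 and Pramef12 lay inside domains in mESCs and at or beyond the edge in 2CLCs. Pramef20 (chr4:144372760-144377933, minus strand) started 46.5 kb inside in mESC DMSO and 31.5 kb inside in mESC dTAG. In 2CLC DMSO the start was 3.51 kb outside, with 32.2% of the body covered, and in 2CLC dTAG it was 1.49 kb inside, with the whole body covered. The edge differed by 1 bin between these last sets, so the placement of Pramef20 in 2CLCs is not resolved by the 5 kb grid. Pramef12 (chr4:144391674-144408464, minus strand), which is needed for spermatogenesis, started 16.0 kb inside in mESC DMSO and 0.962 kb inside in mESC dTAG. It was 26.0 kb outside in 2CLC DMSO and 29.0 kb outside in 2CLC dTAG, with none of its body covered in either. In 2CLC DMSO the nearest edge was that of the next domain to the right, while the cluster's own domain ended 34.0 kb away. In 2CLC dTAG the nearest edge was the end of the cluster's own domain. In both 2CLC sets Pramef12 was thus further from an edge than 5 bins, while in mESC dTAG its start was within 1 bin of the edge.

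**Figure D4:**
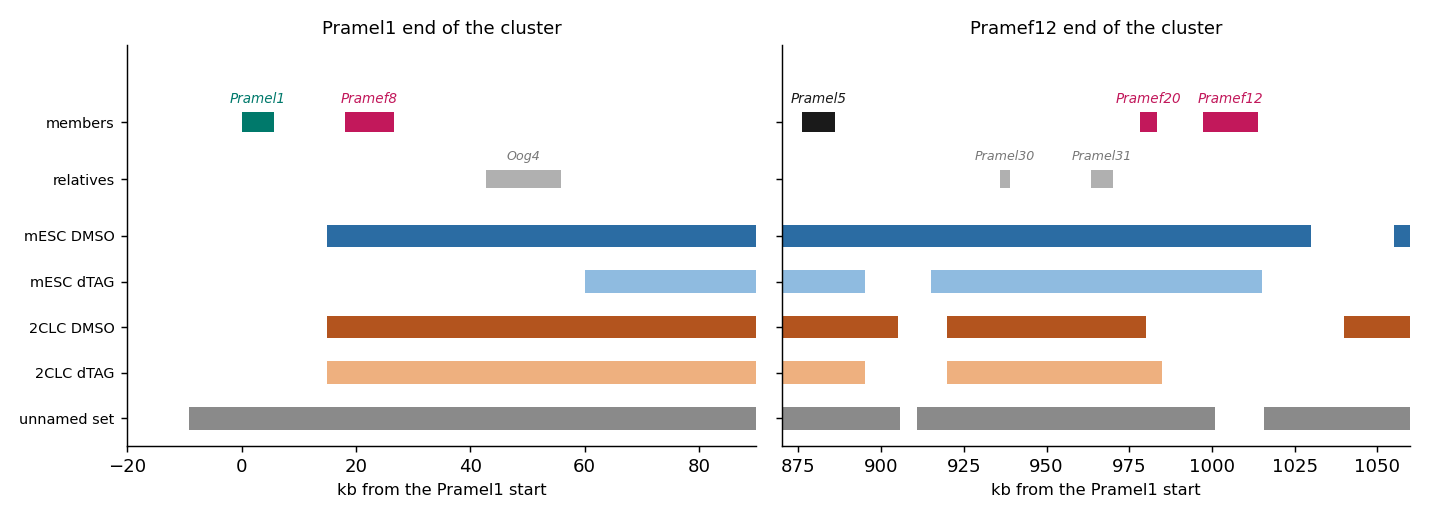
The ends of the chromosome 4 cluster enlarged, with the x axis in kb from the Pramel1 start, genes in the upper rows (colours as in the map of the whole cluster) and domains of each set below. On the left, the edge lies between Pramel1 and Pramef8 at 15.0 kb in 3 sorted sets and at 60.0 kb in mESC dTAG; on the right, the mESC domains pass over Pramef20 and Pramef12 while the 2CLC domain ends inside Pramef20 in DMSO and 1.49 kb past its start in dTAG, in both before Pramef12.

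Counted by comparison, between 1 and 2 genes changed place with dTAG-13 or with cell state. Between mESC DMSO and mESC dTAG, 1 gene was inside in DMSO alone (Pramef8; 9.09%, against 4.86% of all genes) and 0 were inside in dTAG alone (against 6.23%). Between 2CLC DMSO and 2CLC dTAG, 0 genes were inside in DMSO alone (against 4.07%) and 1 was inside in dTAG alone (Pramef20; 9.09%, against 7.48%). Neither of these counts of 1 among 11 is far from the background share. Between the cell states in DMSO, 2 genes were inside in mESCs alone (Pramef20 and Pramef12; 18.2%, against 2.99%) and 0 in 2CLCs alone (against 3.67%). In dTAG, 1 gene was inside in mESCs alone (Pramef12; 9.09%, against 3.25%) and 1 in 2CLCs alone (Pramef8; 9.09%, against 5.96%). Pramef20 and Pramef12 are neighbours at the same domain end, and as called Pramef12 was the one gene on the mESC side in both treatments. The Pramef20 start in 2CLC DMSO (3.51 kb outside) and the Pramef12 start in mESC dTAG (0.962 kb inside) were each within 1 bin of an edge. With domains trimmed by 5 kb, the gene inside in mESC dTAG and not 2CLC dTAG was Pramef20 in place of Pramef12.

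The gene bodies gave the same picture as the starts. These genes are 2.44 to 16.8 kb long, so bodies and starts had little room to differ. Bodies were covered over their whole length for 10 genes (DMSO) and 9 genes (dTAG) in mESCs, against 17.7% and 16.7% of all genes. In 2CLCs they were for 8 and 9 genes, against 17.9% and 18.0%. The shares of all genes were not matched for gene length, on which whole-length cover depends. Only Pramef20 in 2CLC DMSO was covered in part among the sorted sets. No other annotated coding transcript start of any member fell on the other side of an edge from its gene start in any set.

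The 38 relatives were placed to see how the family lies in domains beyond the symbol rule. All 38 started inside domains in 4 of the 5 sets, and 37 did in mESC dTAG, where Oog4 was the exception. Of all genes, 21.4% to 29.8% did in the 5 sets. The relatives are not independent observations, because 14 lie in the chromosome 4 cluster and 18 in a cluster on chromosome 5. In mESC DMSO, a single domain of 2800 kb held all 18 of the latter. On chromosome 5, the cluster of 18 relatives from Pramel33 to Pramel50 spans 2254.3 kb and was covered to 100.0% in mESC DMSO, mESC dTAG and 2CLC DMSO and to 98.0% in 2CLC dTAG, where a gap of 45 kb held no start. On chromosome 12, the stretch from Oog1 to Pramel51 was covered to 100.0% in 3 sorted sets and to 83.6% in 2CLC DMSO, where a gap of 95 kb between them held no start. Pramel32 and the trio Pramel17, Pramel18 and Pramel19, elsewhere on chromosome 4, were covered in full in all 5 sets. With RefSeq symbols, 45 genes of chromosomes 1 to 19 are named Pramel. Of these, 44 (DMSO) and 43 (dTAG) started inside a domain in mESCs, against 21.4% and 22.9% of all RefSeq protein-coding genes. In 2CLCs 42 and 43 did, against 22.0% and 25.8%. The 45 are the genes of the symbol rule with the relatives other than the Oog genes, so they are not independent observations either.

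Repeated sequence was more frequent in the 5 interior genes of the chromosome 4 cluster than in the 4 at its ends, but not in all interior relatives. A 50-mer was called repeated when it occurred more than once on either strand of chromosomes 1 to 19, X and Y of mm10. In gene bodies, repeated 50-mers made up 38.3% in Pramef6, 59.7% in Pramef25, 54.2% in Pramef17, 78.3% in Pramel4 and 24.0% in Pramel5, the 5 interior genes. At the ends they made up 0.419% in Pramel1, 0.0% in Pramef8, 10.1% in Pramef20 and 2.88% in Pramef12. The chromosome 2 genes, inside domains in all sets, had 6.41% (Pramel7) and 0.905% (Pramel6), so a high share did not go with every gene that stayed inside. Among the interior relatives of chromosome 4, which also stayed inside in all sets, Pramel23 had 0.675%, Oog3 9.34% and Pramel24 16.0%, at or near the level of the end genes, and Pramel30 had the highest share with 54.0%. Within the cluster, the 890.0 kb held by all 4 sorted sets had 42.5% repeated 50-mers, the 55.0 kb held by 3 sets 7.06%, the 44.0 kb held by 2 sets 12.5% and the 15.0 kb held by none 3.09%. The 10.0 kb held by mESC DMSO alone, in the gap next to Pramel5, was as rich in repeats as the interior, with 42.5%. On chromosome 4 as a whole, 12.0% of sampled 50-mers were repeated. The stretches of relatives on chromosomes 5 and 12 had 89.1% and 64.1%, against 10.9% and 12.6% of sampled 50-mers on those chromosomes, and 17.3% of the chromosome 12 stretch is N in the assembly. Reads from repeated sequence match several places and were assigned among them in the authors' alignment; the part of this in the domain calls was not tested.

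**Figure D5:**
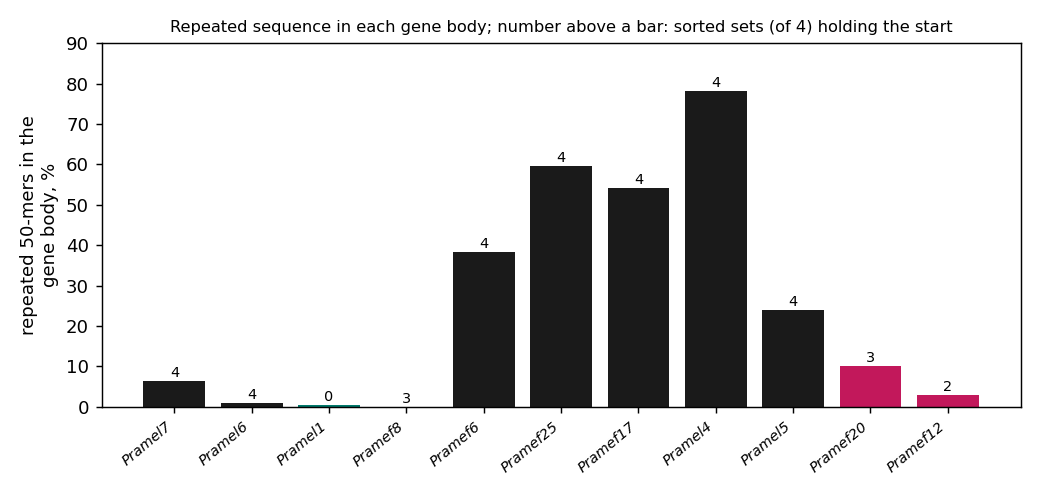
Share of repeated 50-mers in the body of each of the 11 genes, in percent (bars, from 0), with the number of sorted sets that held the start above each bar and colours as in the map of the cluster. The 5 interior genes of chromosome 4 lie between 24.0% and 78.3%, and the 4 genes at its ends between 0.0% and 10.1%.

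In the unnamed set, which was assigned to no group and compared with none, 10 of the 11 starts were inside a domain (90.9%, against 29.8% of all genes). Pramel1 was 9.17 kb inside and Pramef8 27.2 kb inside the same domain of 105 kb, and Pramef20 was 17.3 kb inside another. Pramef12 was the one gene outside, 1.80 kb beyond the edge and with 21.4% of its body covered. The cluster was covered to 97.2% by 4 domains.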

How the data were processed

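H3K9me2 ULI-NChIP and input libraries of mESCs and 2CLCs underlie the files, which hold domain positions with a score of 0 on every line. Per the study's methods, the authors aligned reads allowing several matches, took the log2 ratio of immunoprecipitated to input signal in bins, and extended domains from bins above a high percentile until a bin below a low percentile. The deposited score carries no measurement. Pooling of replicates, and whether percentiles were set per set, are not given in the sources used here. The submitters' processing notes name mm10, STAR 2.7.10, Picard 2.26.0, SAMtools 1.14, bedtools 2.30.0, deepTools 3.5.1 and R 4.1.2.

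Gene starts came from GENCODE M21, relatives (symbols or synonyms starting with Pramel, Pramef or Oog) and promoters from RefSeq GRCm38.p6, the same build. Members and relatives within 2 Mb formed a cluster. A start was inside a domain when its base was. All members are named, and relatives are given by counts. The members and lists were chosen with earlier results of these data known. Coding sequences (the longest per gene) were aligned globally with Biopython 1.88, and identity is over aligned bases. Placement and 50-mer counting (Python 3.11.15, numpy 2.4.6, numba 0.67.0) were tested on simulated data. Depth per sample is unknown. The X chromosome was left out by the rule, and the 9 alternatives tried are given at the end.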

Additional observations from a re-analysis of the deposited data

Results flagged for a closer look

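The number of genes that started inside a domain moved in opposite directions with dTAG-13 in the cell states. The difference, dTAG minus DMSO, was -1 in mESCs (Pramef8) and 1 in 2CLCs (Pramef20). It was picked out because the signs are opposite. With 1 list for each condition, the difference between the cell states was not tested, and the 2CLC value rests on an edge that differed by 1 bin of 5 kb. The Pramef8 start in mESC DMSO was also within 1 bin of the edge, 3.00 kb inside.

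The Pramel1 start lay 9.17 kb inside a domain of the unnamed set and in no domain of the 4 sorted sets. It was picked out because the unnamed set enters no comparison. The unnamed set has its own grid and no stated condition, and no control for it was used here.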

How the results depend on the processing

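Each of 13 counts was recomputed under 9 alternatives, giving 117 values, of which 98 stayed within 1.5 times the count reported. Using the gene midpoint, over 50% of the gene body, RefSeq starts, domains joined over gaps of 10 kb, or domains of at least 50 kb moved none of the 13 counts beyond that. Joining domains and the width limit could not have moved a count. No gap of 10 kb or less and no domain narrower than 50 kb held a start of these genes. RefSeq starts were nearly the same as the GENCODE starts for all genes but Pramel7. The unchanged values under these alternatives are therefore no added support. When starts within 5 kb of a domain counted as inside, 0 genes were inside in 2CLC dTAG and not 2CLC DMSO, and 1 (Pramef12) was inside in mESC DMSO and not 2CLC DMSO. When domains were trimmed by 5 kb at each end, 0 genes were inside in 2CLC dTAG and not 2CLC DMSO, and 0 in 2CLC dTAG and not mESC dTAG. The gene inside in mESC DMSO and not mESC dTAG was then Pramef12 in place of Pramef8, which left the domains of all sorted sets, and the gene inside in mESC dTAG and not 2CLC dTAG was Pramef20. Without the chromosome 4 cluster, 2 genes of 2 were inside in all 5 sets, and 0 differed in any comparison. With RefSeq Pramel symbols, an alternative chosen after seeing the data, 44 (DMSO) and 43 (dTAG) of 45 were inside in mESCs, 42 and 43 in 2CLCs and 44 in the unnamed set, against 21.4% to 29.6% of all RefSeq genes. No paired analysis was possible because the lists hold no values for single libraries. Leaving out a replicate was not possible for the same reason, and the depth behind an edge is unknown.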

Other observations

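The protein-coding genes that flank the chromosome 4 cluster were also placed. Lrrc38, 23.4 kb to the left of Pramel1, started outside domains in all 5 sets, 59.7 kb from the nearest one in mESC DMSO, 2CLC DMSO and 2CLC dTAG and 90.3 kb in mESC dTAG. To the right, 1700012P22Rik, 9.7 kb from Pramef12, started 4.35 kb inside a domain in 2CLC DMSO and was outside in the other 3 sorted sets, by 10.7 kb (DMSO) and 29.3 kb (dTAG) in mESCs and 55.7 kb in 2CLC dTAG. Between the cell states in DMSO, the flanking gene was thus inside in 2CLCs alone where its neighbour Pramef12 was inside in mESCs alone, and the 2CLC placement is within 1 bin of an edge. At Pramel17 to Pramel19, the right flank Gm12790 was 16.6 kb outside in mESC dTAG and inside in the other 3 sorted sets by 33.4 to 261.6 kb.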
